A study of Mus musculus with 8 samples.

Results

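The killer genes of natural killer (NK) cells and cytotoxic T cells were measured in Sca1+Lin- bone marrow cells of Sca1-MALT1 and wild-type mice. The set comprised 10 genes, Ccl5, Nkg7, Fasl, Gzma, Gzmb, Prf1, Klrd1, Ncr1, Tbx21 and Eomes, taken by symbol with every probe set that the platform annotation assigns to them. They were covered by 13 of the 34945 probe sets with 1 gene symbol and made up 10 of 18193 genes. By the brightest probe set of a gene, every Sca1-MALT1 array exceeded every wild-type array for Nkg7, Ccl5, Fasl and Gzmb, as in 4.27% of all genes. The other Fasl probe set overlapped between genotypes. For Gzma, 4 of the 5 Sca1-MALT1 arrays read below wild type. No gene of the set passed the test over all genes.

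Of the 8 samples, 5 came from transgenic Sca1-MALT1 mice and 3 from wild-type mice (WT). By its name, the transgene places MALT1, a paracaspase that relays antigen receptor signals to NF-kappaB, under the promoter of Sca1. All were sorted bone marrow cells positive for Sca1 and negative for lineage markers, and their amplified total RNA was hybridised to 1-colour arrays, 1 array per sample. The labels give neither age, sex nor strain, nor the lineage markers of the sort, nor whether each sample is a different animal. The p-values therefore cover only the spread among these 8 samples, some of which may be technical. Values are log2 signals after robust multi-array averaging (RMA), with array medians of 6.40 to 6.48 over all 45101 probe sets. The median over genes, each read by its brightest probe set, was higher. By mean signal, Gzmb and Ncr1 did not exceed the median gene. RMA gives no detection call, so a value near either median is not shown to exceed background.

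NK cells and CD8 T cells kill by releasing granules that hold the pore-forming protein perforin and the granzymes, serine proteases that enter the target cell, or by engaging the death receptor Fas with Fas ligand. The T-box factors T-bet (Tbx21) and Eomesodermin (Eomes) control much of this programme. NK cells express both factors in the mouse, and receptors such as NKp46 (Ncr1) mark the lineage. In bulk samples such as these, fewer cells of a type and less RNA per cell cannot be told apart.

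The label of the sort was checked against marker genes. Of 10 stem and progenitor markers, 9 were measured, and their mean signal was 8.07 to 10.27 in Sca1-MALT1 and 9.42 to 10.89 in WT. Kit read 8.43 to 10.65 in Sca1-MALT1 and 9.24 to 11.06 in WT, above the array medians throughout. Sca1 itself (Ly6a) was not analysed here. The mean of the T cell markers also stood above the medians in both genotypes, and Thy1 read 10.99 to 12.92 in Sca1-MALT1 and 10.32 to 11.72 in WT. The same held for the mean of the B cell markers, at 8.17 to 10.11 in Sca1-MALT1 and 9.87 to 10.53 in WT. Plasma cell markers had means of 11.04 to 12.82 in Sca1-MALT1 and 9.11 to 9.33 in WT. Other innate lymphoid markers had means of 10.49 to 11.31 in Sca1-MALT1 and 9.23 to 11.13 in WT. An Xist signal above 9, read as a sign of female origin, was present in Sca1-MALT1 replicates 2 and 4 and in no WT array.

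Among the secreted and surface effectors, the chemokine and death ligand genes stood higher in Sca1-MALT1. Ccl5, a chemokine of activated T and NK cells that attracts leukocytes, read 12.27, 12.12, 13.12, 11.82 and 12.99 in Sca1-MALT1 replicates 1 to 5, against 10.85, 10.20 and 10.57 in WT replicates 1 to 3. All Sca1-MALT1 arrays lay above all WT arrays, with replicates 3 and 5 the highest. The means were 12.47 ± 0.56 in Sca1-MALT1 (SD, n = 5) and 10.54 ± 0.32 in WT (n = 3). The log2 difference, Sca1-MALT1 minus WT, was 1.93 (SE 0.32, 95% interval 1.20 to 2.66), or 3.80-fold higher. Its adjusted p in limma's test was 0.109, and its exact permutation p over the 56 splits of 8 arrays was 0.0179, the smallest the design allows. With a term for sex read from Xist the difference was 2.26 and passed the threshold (limma adjusted p = 0.0417). Within the Xist-low arrays, 3 Sca1-MALT1 and 3 WT, it was the same 2.26 by construction (limma adjusted p = 0.0425). No WT array was Xist-high, so in both settings the difference sets Sca1-MALT1 replicates 1, 3 and 5 against WT. It leaves out replicates 2 and 4, the 2 lowest Sca1-MALT1 arrays for Ccl5.

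Fasl encodes Fas ligand and was covered by 2 probe sets. The brighter one read 10.68, 11.67, 11.40, 8.55 and 9.96 in Sca1-MALT1 replicates 1 to 5, against 8.18, 8.53 and 7.85 in WT replicates 1 to 3. Of the Sca1-MALT1 arrays, 4 lay well above WT, while replicate 4, at 8.55, only just exceeded WT replicate 2, at 8.53. The difference was 2.26 (SE 0.65, 95% interval 0.78 to 3.75; limma adjusted p = 0.320, exact permutation p = 0.0357), or 4.80-fold higher. Without Sca1-MALT1 replicate 4 it was 2.74 (limma adjusted p = 0.0656). The dimmer probe set had the same order of genotypes, with 7.80, 8.40, 8.49, 6.0 and 7.72 in Sca1-MALT1 against 6.02, 6.10 and 5.56 in WT, a difference of 1.79 (SE 0.52). In it replicate 4 fell inside the WT range.

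Nkg7, a membrane protein of cytotoxic granules, read 11.74, 13.03, 12.11, 11.71 and 12.14 in Sca1-MALT1 replicates 1 to 5, against 11.23, 11.16 and 10.52 in WT replicates 1 to 3. The groups did not overlap, and replicate 2 was the highest of all 8 arrays. The means were 12.15 ± 0.53 in Sca1-MALT1 (SD, n = 5) and 10.97 ± 0.39 in WT (n = 3), a difference of 1.17 (SE 0.32, 95% interval 0.45 to 1.90; limma adjusted p = 0.298, exact permutation p = 0.0179), or 2.26-fold higher.

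The granule proteases stood on opposite sides. Granzyme A (Gzma), a tryptase, read 6.69, 9.15, 6.69, 5.88 and 6.86 in Sca1-MALT1 replicates 1 to 5, against 9.03, 9.40 and 11.01 in WT replicates 1 to 3. Replicates 1, 3, 4 and 5 lay below every WT array and near the array medians, and replicate 2 lay within the WT range. The difference was -2.76 (SE 0.73, 95% interval -4.44 to -1.08; limma adjusted p = 0.295, exact permutation p = 0.0357). Without replicate 2 it was -3.28 (limma adjusted p = 0.0648). Granzyme B (Gzmb), which cuts after aspartate and activates caspases, read 7.0, 9.48, 7.64, 7.39 and 7.70 in Sca1-MALT1 replicates 1 to 5, against 6.64, 6.89 and 6.86 in WT replicates 1 to 3. The groups did not overlap, although replicate 1 was close to the highest WT array, at 6.89. The difference was 1.05 (SE 0.49, 95% interval -0.08 to 2.17; limma adjusted p = 0.517, exact permutation p = 0.0714). It was 0.64 without replicate 2. The mean signal of Gzmb over the 8 arrays did not exceed that of the median gene.

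Within each array, Gzmb minus Gzma was 0.31, 0.33, 0.95, 1.52 and 0.84 in Sca1-MALT1 replicates 1 to 5 and -2.39, -2.50 and -4.15 in WT replicates 1 to 3. This pair was chosen after its values were seen. Signals of different probe sets are not on a common scale, so only the change of this value between genotypes is read, and it was 3.81 with no overlap (exact permutation p = 0.0179, the smallest the design allows, for a pair chosen for its separation). Leaving out 1 array at a time gave a change of 3.24 to 4.12.

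For perforin (Prf1), the pore former of the granule, the interval of the difference included 0. Its brighter probe set read 8.64, 8.64, 9.05, 7.68 and 7.51 in Sca1-MALT1 replicates 1 to 5, against 6.84, 7.56 and 8.29 in WT replicates 1 to 3. Replicates 1, 2 and 3 lay above all WT arrays, and replicates 4 and 5 lay within the WT range. The difference was 0.74 (SE 0.43, 95% interval -0.25 to 1.73; limma adjusted p = 0.611, exact permutation p = 0.161). Without WT replicate 1 it was 0.38. The other probe set stayed between 5.26 and 5.82 on all arrays, below the array medians, with a difference of 0.00 (95% interval -0.34 to 0.34).

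**Figure D1:**
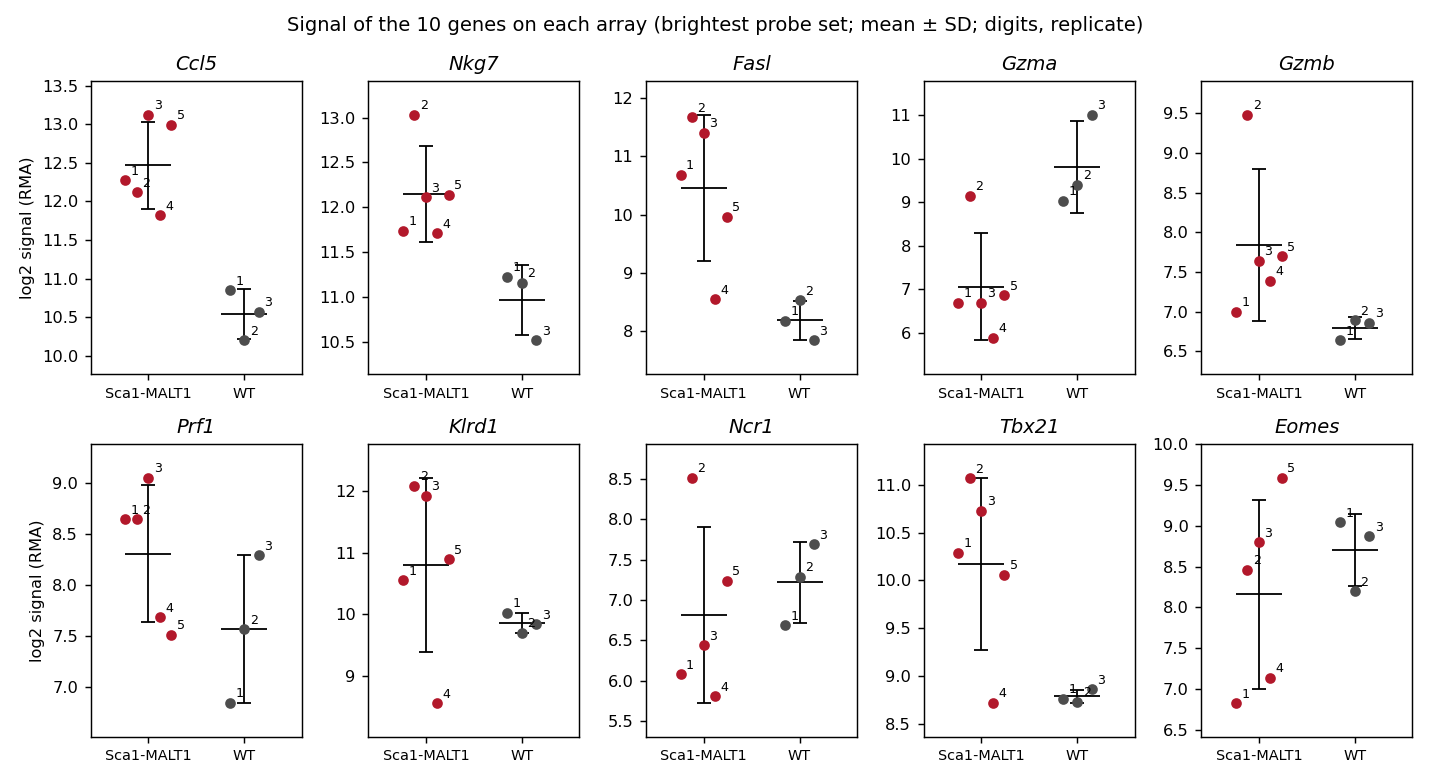
Log2 signal (vertical axis, a separate scale per gene) of the brightest probe set of each of the 10 genes, with Sca1-MALT1 arrays in red on the left, WT arrays in grey on the right and replicate numbers beside the points. Bars give mean ± SD; Ccl5, Nkg7, Fasl and Gzmb do not overlap between genotypes, and Gzma is lower in 4 of 5 Sca1-MALT1 arrays.

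The T-box factors were read next. Tbx21, the gene of T-bet, read 10.29, 11.07, 10.73, 8.72 and 10.06 in Sca1-MALT1 replicates 1 to 5, against 8.76, 8.73 and 8.86 in WT replicates 1 to 3. Replicates 1, 2, 3 and 5 stood clear above WT, and replicate 4, at 8.72, stood just below the lowest WT array, at 8.73. The means were 10.17 ± 0.90 in Sca1-MALT1 (SD, n = 5) and 8.79 ± 0.07 in WT (n = 3), a difference of 1.39 (SE 0.46, 95% interval 0.33 to 2.45; limma adjusted p = 0.378, exact permutation p = 0.107). Without replicate 4 the difference was 1.75 (limma adjusted p = 0.0572). With the sex term it was 1.57 and did not pass (limma adjusted p = 0.281). Within the Xist-low arrays, a setting added after the data were seen, the same 1.57 passed the threshold (limma adjusted p = 0.0425). Those arrays also leave out replicate 4.

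Eomes, the other T-box gene of the set, read 6.83, 8.46, 8.80, 7.14 and 9.59 in Sca1-MALT1 replicates 1 to 5, against 9.04, 8.20 and 8.87 in WT replicates 1 to 3, by its brighter probe set. Replicates 1 and 4 lay below all WT arrays and replicate 5 above them. The difference was -0.54 (SE 0.61, 95% interval -1.94 to 0.86; limma adjusted p = 0.813), with -0.21 without replicate 1, -0.29 without replicate 4 and -0.90 without replicate 5. Its dimmer probe set differed by -0.72 (SE 0.34, 95% interval -1.50 to 0.07), with 4 of 5 Sca1-MALT1 arrays below all WT arrays. Tbx21 minus Eomes within an array was 3.46, 2.61, 1.93, 1.58 and 0.47 in Sca1-MALT1 replicates 1 to 5 and -0.28, 0.53 and -0.01 in WT replicates 1 to 3, a pair also chosen after its values were seen. The change of 1.93 between genotypes had an exact permutation p of 0.0714, with overlapping groups. Leaving out 1 array at a time gave an exact p of 0.0857 to 0.143, except for 0.0286 without replicate 5.

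For the NK receptors of the set, too, the intervals included 0. Klrd1 encodes CD94, the partner of the NKG2 receptors on NK cells and some CD8 T cells. It read 10.56, 12.09, 11.93, 8.56 and 10.90 in Sca1-MALT1 replicates 1 to 5, against 10.03, 9.70 and 9.84 in WT replicates 1 to 3. Replicate 4 lay below WT and the other 4 Sca1-MALT1 arrays above it, and the difference was 0.95 (SE 0.72, 95% interval -0.70 to 2.61; limma adjusted p = 0.71, exact permutation p = 0.304). It was 1.52 without replicate 4 (limma adjusted p = 0.199) and 0.63 without replicate 2 (limma adjusted p = 0.787). Ncr1 read 6.08, 8.52, 6.44, 5.81 and 7.24 in Sca1-MALT1 replicates 1 to 5, against 6.69, 7.29 and 7.69 in WT replicates 1 to 3. Replicates 1, 3 and 4 lay below WT and replicate 2 above it, giving -0.41 (SE 0.59, 95% interval -1.75 to 0.93; limma adjusted p = 0.857). That value was -0.16 without replicate 4 and -0.83 without replicate 2.

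**Figure D2:**
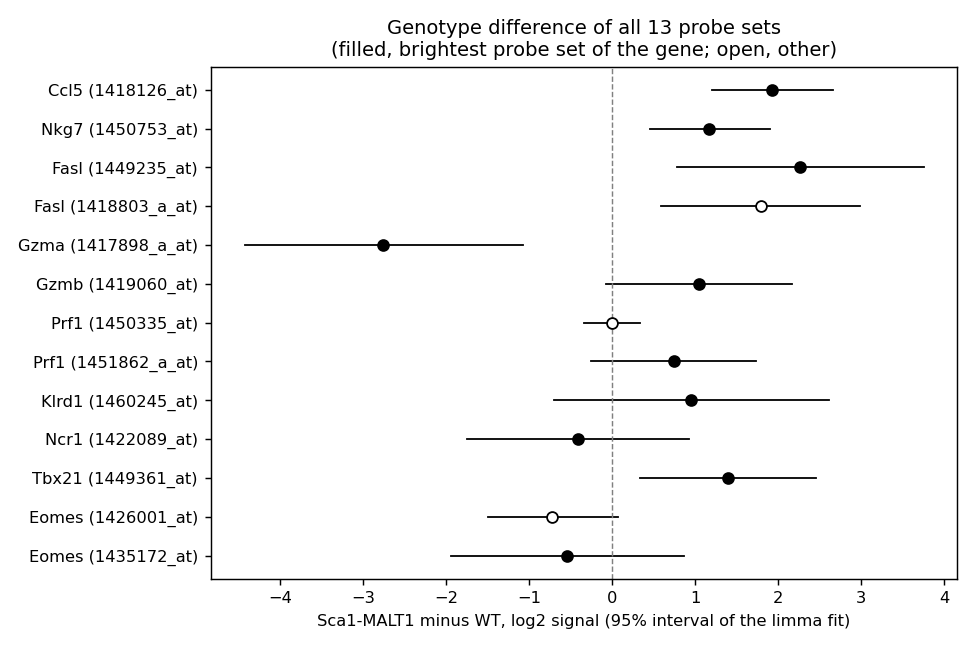
Genotype difference in log2 signal, Sca1-MALT1 minus WT (horizontal axis), for all 13 probe sets of the 10 genes (rows), from the limma fit over all named probe sets with its 95% interval. Filled points are the brightest probe set of a gene and open points the others; the intervals of Ccl5, Nkg7, both Fasl probe sets and Tbx21 lie above 0, and that of Gzma lies below it.

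In counts, 7 of the 10 genes had a positive and 3 a negative difference, with a median of 1.0 against 0.004 over all 18193 genes. None passed an adjusted p of 0.05 in limma's test, where 16 genes did, 0.0879% of those tested (0.044% higher and 0.044% lower). At an unadjusted p under 0.05 there were 5, Ccl5, Nkg7, Fasl and Tbx21 higher and Gzma lower, against 10.2% of all genes (5.69% higher and 4.49% lower). Groups did not overlap in 4 genes, all higher, against 4.27% of all genes for that direction and 2.87% for the lower one. Without Sca1-MALT1 replicate 4 the 4 became 6, with Tbx21 and Klrd1 added, against 7.37% of all genes, and the lower count stayed at 0, against 5.07%. The genes were chosen with results of these data known, so these counts are descriptions.

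Sca1-MALT1 replicates 2 and 4 stood at opposite ends. Replicate 2 was the highest of the 5 Sca1-MALT1 arrays in 7 of the 10 genes (13.4% of all genes), and replicate 4 was the lowest in 7 (25.4% of all genes). Compared with the WT range, replicate 2 lay above it in 8 genes and below it in none, whereas replicate 4 lay above it in 4 and below it in 5. Both arrays were Xist-high, so the Xist signal did not separate them. T cell markers were low in replicate 4 as well. The mean of 18 markers was 8.31 there, against 9.32 to 9.65 in the other 4 Sca1-MALT1 arrays and 8.49 to 8.80 in WT. Their part in the results for the NK and cytotoxic genes was not tested.

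**Figure D3:**
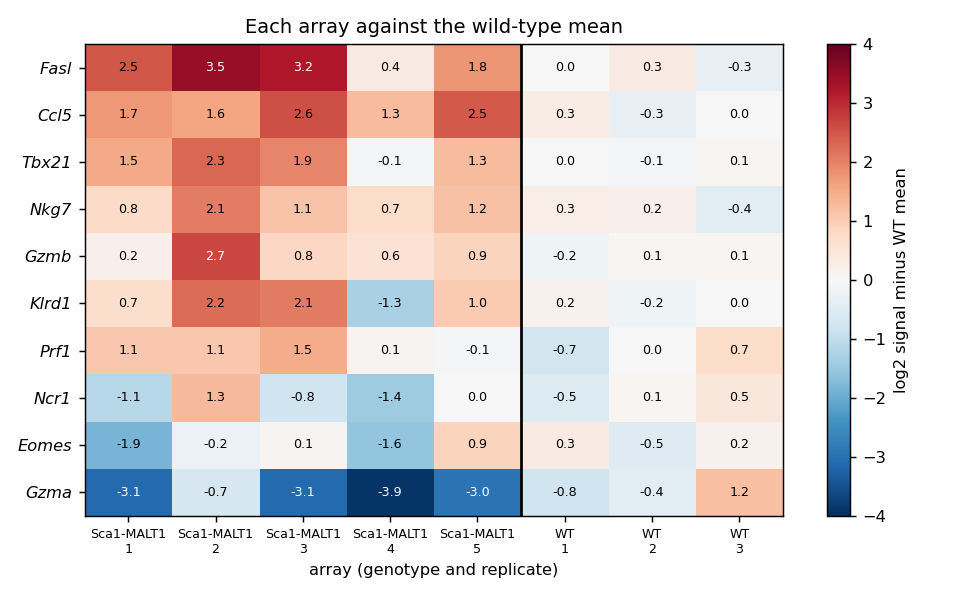
Log2 signal of the brightest probe set minus its WT mean (colour and printed values) for the 10 genes (rows, ordered by genotype difference) on each array (columns; Sca1-MALT1 left of the line, WT right of it). Tbx21 and Klrd1 are below the WT mean in Sca1-MALT1 replicate 4 and above it in the other 4 Sca1-MALT1 arrays; Gzma is below it in all 5.

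Promoters are shown for Fasl and Nkg7, which stood higher in all 5 Sca1-MALT1 arrays by their brightest probe sets, and for both granzymes, which stood on opposite sides. Each runs from 250 bases before to 50 bases after the start of transcription in RefSeq (GRCm38.p6) and is written 5′ to 3′ on the strand of the gene. Capitals mark the T-box core GGTGTG, the core of the sites that T-bet and Eomesodermin bind, and the RUNX core TGTGGT, or their reverse complements CACACC and ACCACA. Fasl lies at chr1:161788446-161788745 on the minus strand, Nkg7 at chr7:43436888-43437187 on the plus strand, Gzma at chr13:113100932-113101231 on the minus strand and Gzmb at chr14:56262285-56262584 on the minus strand.
Fasl: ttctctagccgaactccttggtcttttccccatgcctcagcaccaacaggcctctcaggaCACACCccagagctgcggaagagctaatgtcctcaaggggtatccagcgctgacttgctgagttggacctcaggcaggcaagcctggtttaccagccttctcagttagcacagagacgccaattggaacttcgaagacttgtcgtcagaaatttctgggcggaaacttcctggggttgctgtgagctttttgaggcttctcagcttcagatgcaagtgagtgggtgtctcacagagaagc
Nkg7: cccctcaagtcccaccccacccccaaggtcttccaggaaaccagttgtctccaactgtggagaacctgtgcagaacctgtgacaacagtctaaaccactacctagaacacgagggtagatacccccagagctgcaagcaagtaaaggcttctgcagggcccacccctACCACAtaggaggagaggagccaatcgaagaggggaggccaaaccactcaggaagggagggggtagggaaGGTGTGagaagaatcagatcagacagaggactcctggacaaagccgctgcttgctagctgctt
Gzma: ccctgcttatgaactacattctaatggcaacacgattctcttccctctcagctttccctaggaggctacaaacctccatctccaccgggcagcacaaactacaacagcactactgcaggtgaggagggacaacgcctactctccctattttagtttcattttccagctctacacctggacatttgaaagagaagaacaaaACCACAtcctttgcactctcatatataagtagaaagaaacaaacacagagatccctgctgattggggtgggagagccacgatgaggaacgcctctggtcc
Gzmb: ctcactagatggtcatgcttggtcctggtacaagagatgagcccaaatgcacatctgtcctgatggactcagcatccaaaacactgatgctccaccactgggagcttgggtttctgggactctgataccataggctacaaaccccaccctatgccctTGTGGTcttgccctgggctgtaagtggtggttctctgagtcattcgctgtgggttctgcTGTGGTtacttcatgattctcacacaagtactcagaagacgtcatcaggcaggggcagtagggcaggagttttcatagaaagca
The T-box core begins 190 bases before the start site in Fasl and 13 bases before it in Nkg7. The RUNX core begins 83 bases before the start site in Nkg7, 50 before it in Gzma, and 93 and 34 before it in Gzmb. No marked motif overlaps another. Of the 10 genes, 8 had a promoter in the table, 2 of them with a T-box core and 5 with a RUNX core, while 19.0% and 16.8% of all 32851 promoters of this length hold them. Both motifs were searched on both strands. The ETS core GGAAGT, searched likewise but not capitalised, was found in 3 of the 8 and in 23.8% of all promoters. Matches are descriptions of letters and not binding sites.

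Genes around the set were read from 10 lists. Of 22 genes of other granule proteins and their release, all measured, none passed over all genes in limma's test, 4 had an unadjusted p under 0.05 (all higher), 16 had a positive difference, and the median was 0.06. Cst7, a cystatin that inhibits granule cathepsins, read 9.74 to 10.74 in Sca1-MALT1 and 8.06 to 9.33 in WT, with no overlap (difference 1.38, SE 0.33, limma adjusted p = 0.261). Both Gzmk and Gzmm, further granzyme genes, stood on the side of Gzmb. Gzmk read 7.65 to 10.04 in Sca1-MALT1 and 6.99 to 7.51 in WT (difference 1.42, SE 0.52), with no overlap, and Gzmm read 6.66 to 7.54 in Sca1-MALT1 and 6.13 to 6.82 in WT (0.77, SE 0.24). The remaining granzyme genes of the list, Gzmc, Gzmd, Gzme, Gzmf, Gzmg and Gzmn, differed by -0.21 to 0.15, with signals below the array medians. Ctsw, a cathepsin of cytotoxic cells, read 11.83, 12.72, 12.32, 10.02 and 11.91 in Sca1-MALT1 and 10.39, 10.33 and 10.33 in WT (1.41, SE 0.53), so that replicate 4 alone lay below WT.

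Of 25 NK surface receptors, 19 were measured and 13 had a positive difference, with a median of 0.17 and no gene past the threshold in limma's test (3 at an unadjusted p under 0.05, all higher). Slamf7, a receptor of NK and plasma cells, read 9.08 to 10.38 in Sca1-MALT1 and 8.04 to 8.98 in WT, without overlap (difference 1.05, SE 0.34, limma adjusted p = 0.372). Klrk1, the gene of the activating receptor NKG2D, read 9.40, 9.95, 9.10, 7.10 and 8.41 in Sca1-MALT1 and 7.31, 7.21 and 7.14 in WT (1.57, SE 0.56, limma adjusted p = 0.397). Again only replicate 4 lay below WT. Itga2, the integrin known as CD49b, differed by 0.41 (SE 0.17) and Klra8, of the Ly49 family, by -0.67 (SE 0.31), both with signals below the array medians. Ly49 genes are near-identical to one another, so their probe sets may not separate them.

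The partners of Ccl5 and Fasl and the other effector cytokines, 16 measured of 17, had a median of 0.14, and none passed in limma's test (1 at an unadjusted p under 0.05, Ccl3, lower). The chemokine genes Ccl3 and Ccl4 had negative differences, unlike Ccl5, with overlapping groups. Ccl3 read 5.59 to 6.13 in Sca1-MALT1 and 5.95 to 7.03 in WT (difference -0.73, SE 0.24). Its Sca1-MALT1 values and that of WT replicate 2, at 5.95, lay below the array medians. Ccl4 read 7.36 to 7.97 in Sca1-MALT1 and 7.77 to 8.84 in WT (-0.53, SE 0.25). Ifng, the gene of interferon gamma and a known target of T-bet, read 9.66, 11.63, 10.20, 6.40 and 8.46 in Sca1-MALT1 and 7.44, 7.75 and 7.78 in WT (1.61, SE 1.0, limma adjusted p = 0.637). Replicate 4 lay below WT and the other 4 Sca1-MALT1 arrays above it. Tnfrsf10b, the mouse death receptor for TRAIL, differed by 0.24 (SE 0.12) with signals below the array medians.

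Transcription factors and cytokine receptors of effector cells, 23 measured of 25, had a median of 0.22 with 19 positive differences and none past the threshold (limma; at an unadjusted p under 0.05, 3 higher and 2 lower). Il2rb, the shared receptor chain for IL-2 and IL-15, on which NK cells depend, read 8.10 to 10.37 in Sca1-MALT1 and 7.92 to 8.35 in WT (difference 1.19, SE 0.43, limma adjusted p = 0.404). Il15, the cytokine itself, differed by -0.99 (SE 0.37, limma adjusted p = 0.407). Zeb2, a transcription factor of mature NK and effector T cells, differed by -2.09 (SE 0.79), without overlap. Prdm1 (Blimp-1), which both effector T cells and plasma cells use, differed by 2.76 (SE 0.49, limma adjusted p = 0.127).

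Markers of other cell types were read in the same way. Among 18 measured of 21 T cell markers, 17 had a positive difference, with a median of 0.62, or 0.93 without Sca1-MALT1 replicate 4, and none passed in limma's test (5 at an unadjusted p under 0.05, all higher). Zap70, a kinase of T and NK cells, differed by 0.80 (SE 0.17, limma adjusted p = 0.209), the costimulatory receptor Cd28 by 1.69, Thy1 by 1.43 and Cd6 by 0.93. The probe sets of Zap70, Cd8a, Klra8 and Gzme are of the x_at kind, which may hybridise to other sequences. The coreceptor genes, picked out after their values were seen, were Cd8a at 0.03 (95% interval -0.23 to 0.29), Cd8b1 at 0.16 (-0.14 to 0.45) and Cd4 at -0.22 (-0.54 to 0.09). Their signals ran from 5.57 to 7.73 in Sca1-MALT1 and from 5.41 to 7.64 in WT. The signalling subunit Cd3e, by comparison, read 8.77 to 10.70 in Sca1-MALT1 and 8.89 to 9.20 in WT.

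All 9 plasma cell markers had a positive difference, with a median of 2.58, and Jchain passed (2.58, SE 0.27, limma adjusted p = 0.0163). Their mean signal was 11.04 to 12.82 in Sca1-MALT1 and 9.11 to 9.33 in WT. The difference was 5.93 for Igha, 2.88 for Derl3 and 1.32 for Xbp1, and Prdm1 is in this list too. Stem and progenitor markers had a median of -1.24 (8 of 9 negative, none past the threshold and 4 at an unadjusted p under 0.05), led by Flt3 at -1.59, Hlf at -1.33, Cd34 at -2.15 and Hoxa9 at -1.82. B cell markers, 9 measured of 10, had a median of -1.05 (9 of 9 negative, none past the threshold and 3 at an unadjusted p under 0.05), with Pax5 at -1.16, Ebf1 at -2.28, Cd79b at -1.04 and Ms4a1 at -1.05. Mast cell and basophil markers had a median of 0.08 over 10 measured of 11, with Hdc at -1.68, Fcer1a at 0.71, Mcpt1 at 0.13 and Cpa3 at -0.50. Other innate lymphoid markers, 5 measured of 7, had a median of 0.45, with Il7r at 0.50, Gata3 at 0.77, Zbtb16 at 0.45 and Rora at 0.30. The part of these cell types in the results for the NK and cytotoxic genes was not tested.

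**Figure D4:**
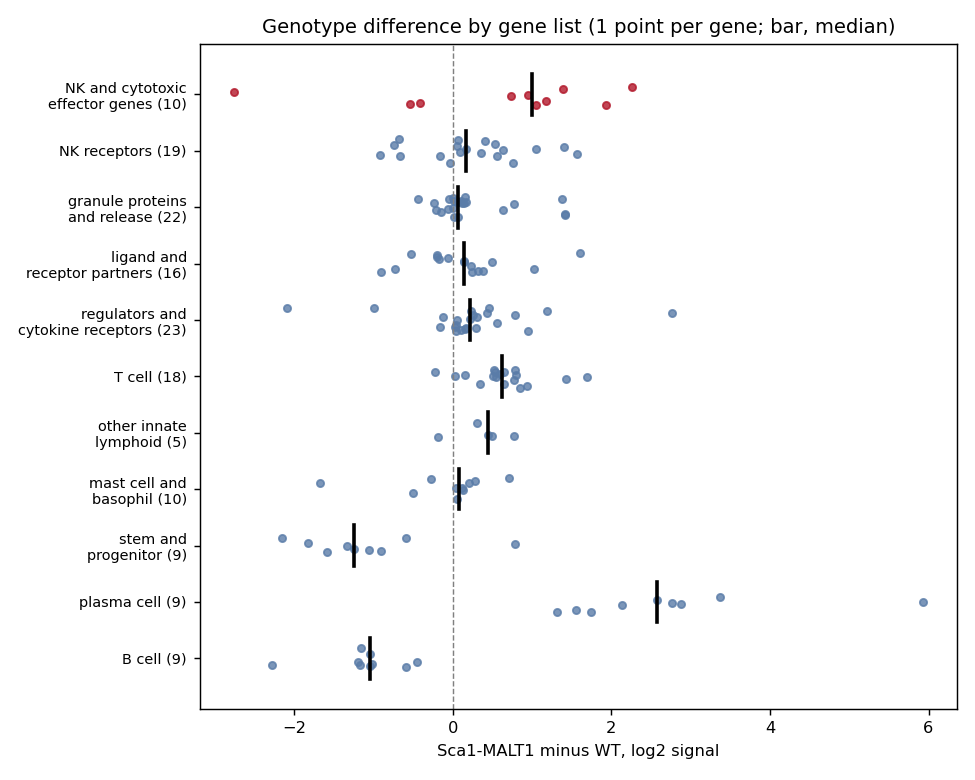
Genotype difference in log2 signal, Sca1-MALT1 minus WT (horizontal axis), of the 10 NK and cytotoxic genes (red) and of 10 further gene lists (blue), 1 point per measured gene with the number of genes in brackets. Vertical bars mark medians, which run from -1.24 for stem and progenitor markers to 2.58 for plasma cell markers and stand at 1.0 for the NK and cytotoxic genes.

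The genes whose pattern lay closest to each member were found as the smallest root mean square difference between values centred on their own mean over the 8 arrays. For Tbx21 these were Ctsw (0.14 log2 units), Ppm1j (0.19) and Il2rb (0.23), the closest match of any member. Fasl was nearest to Sytl2 (0.39), Abcb1a (0.44) and Klrk1 (0.46). Klrd1 was nearest to Ctsw (0.39), Sh2d1a (0.40) and Ifit1bl1 (0.40). Ccl5 was nearest to Kif5c (0.25), Aldh1a1 (0.28) and Gpr15 (0.28), none of them in the lists.

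The nearest genes of Gzma were Niban3 at 0.79, Hgf at 0.90 and Tmprss3 at 0.94, the largest distances of the set. The measure is not scaled to the range of a gene, and Gzma had the widest range of the set, 5.13 log2 units. These distances therefore do not show that Gzma lacks a gene of like pattern. Niban3, a B cell gene, was among the genes that passed the test (difference -3.18, limma adjusted p = 0.00618). Gzmb was nearest to Spo11 (0.33), Igtp (0.35) and Nlrc5 (0.40), and Nkg7 to F2rl2 (0.31), Epdr1 (0.34) and Spo11 (0.34). Prf1 was nearest to 5830428M24Rik (0.26), Padi2 (0.29) and Id2 (0.30), Ncr1 to Cxcl9 (0.38), Erdr1 (0.45) and Irgm2 (0.46), and Eomes to Tsc22d1 (0.41), Zfp711 (0.42) and Erdr1 (0.42). No member of the set was among the 3 nearest genes of another.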

How the data were processed

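Total RNA of sorted cells was amplified and hybridised to 8 arrays, 5 Sca1-MALT1 and 3 WT. The authors deposited log2 values, 1 per probe set on each array, and the submitters' processing notes name RMA. The version and software were not given in the sources used here. Of 45101 probe sets, 64 controls, 932 with several symbols and 9160 unlisted ones were left out. Symbols were updated through Entrez identifiers (RefSeq, GRCm38.p6), and each of 18193 genes was represented by its probe set with the highest mean.

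Genotypes were compared with limma 3.58.1 (R 4.3.3, lmFit and eBayes), with Benjamini-Hochberg adjustment over all genes, two-sided, at 0.05, after testing on simulated data. In the fit over all 34945 named probe sets the adjustment ran over all of them. The exact two-sided permutation test of single values used all 56 splits, and the number of arrays limits the precision. All 10 genes of the set were named, with up to 4 genes per list of lowest unadjusted p and the 3 nearest genes of each member that spanned over 2 log2 units. The genes and lists were chosen with earlier results of these data known. Alternatives were quantile normalization, median centring, 2 filters for dim signals, a fit of each probe set, averaged probe sets, an intensity trend, array weights, other thresholds, the replicate block, a sex term and each array left out. The fit within Xist-low arrays, the gene pairs and the overlap counts were added after the data were seen.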

Additional observations from a re-analysis of the deposited data

Results flagged for a closer look

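In the 5 Sca1-MALT1 arrays, 1 array stood apart from the other 4 by Dixon's ratio at the 95% level in 7 of 63 values tested. Chance gives about 1 in 20 for independent values. These values are not independent, as the T cell list mean holds Cd28, Thy1 and Cd6, so no excess is read from the count. Gzmb was high in replicate 2, at 9.48 against 7.0 to 7.70 in the others. T cell genes were low in replicate 4, with Cd28 at 8.61 against 10.36 to 10.66, Thy1 at 10.99 against 12.46 to 12.92 and Cd6 at 7.15 against 8.36 to 8.60. The mean of the T cell list was 8.31 in replicate 4, against 9.32 to 9.65 in the others. Replicate 1 was high in Itga2, at 6.24 against 5.64 to 5.80, and in Prdm1, at 11.31 against 9.62 to 9.94.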

How the results depend on the processing

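The direction of all 10 genes held in every alternative that gave a value (17 to 19 per gene). Not all of these could change it. The 2 filters for dim signals and the intensity trend leave a difference as it is. So does the fit of each probe set, which was read here by the brightest one. These bear only on the adjusted p. Ranges were 1.76 to 2.26 for Ccl5, 0.95 to 1.32 for Nkg7, 1.96 to 3.06 for Fasl, -3.28 to -2.16 for Gzma, 1.16 to 1.91 for Tbx21, 0.64 to 1.26 for Gzmb, 0.37 to 1.21 for Prf1, 0.63 to 1.67 for Klrd1, -0.83 to -0.16 for Ncr1 and -0.90 to -0.21 for Eomes. No gene of the set passed except under 2 settings. With a sex term Ccl5 passed (2.26), and within the Xist-low arrays Ccl5 (2.26) and Tbx21 (1.57) passed, which made 1 and 2 genes. The differences are the same in both settings by construction, since no WT array was Xist-high. The number of all genes past the threshold, 16, was 28 after median centring, 28 among genes above the array median in at least 3 arrays, 28 with array weights, 29 with the sex term, 59 within the Xist-low arrays, 8 and 38 at thresholds of 0.01 and 0.10, and 8 to 38 with 1 array left out (10, 38, 8 and 9 without Sca1-MALT1 replicates 1, 2, 3 and 5). The cause was not tested. The filters on dim genes used medians over genes, each by its brightest probe set, and not over all probe sets. The filter on the mean removed Gzmb and Ncr1, and the filter on at least 3 arrays removed Ncr1 alone. The number of members higher without overlap was 4 to 6 and of those lower 0 to 1 with 1 array left out (1, Gzma, without Sca1-MALT1 replicate 2 or WT replicate 1). Over all genes the shares rose from 4.27% higher and 2.87% lower to 7.37% and 5.07% without Sca1-MALT1 replicate 4. Shares for the other left-out arrays were not computed. Tbx21 minus Eomes ranged from 1.56 to 2.31 and Gzmb minus Gzma from 3.24 to 4.12. With the replicate number as a block, 0 genes passed by limma. At an unadjusted limma p under 0.05 there were 2034 of 18193 genes, 7 of them in the set. Replicates 4 and 5 have no WT array, so these differences set Sca1-MALT1 replicates 1 to 3 against WT. They leave out replicate 4, the lowest Sca1-MALT1 array in 7 of the 10 genes. The differences were 1.97 for Ccl5, 1.32 for Nkg7, 3.06 for Fasl, -2.30 for Gzma and 1.91 for Tbx21. For the other genes they were 1.67 for Klrd1, 1.21 for Prf1, 1.24 for Gzmb, -0.21 for Ncr1 and -0.68 for Eomes. The labels do not say what the numbers share, and same-numbered arrays correlated at -0.22, -0.04 and 0.01 in their deviations from the group means, so the numbers were not taken to pair the samples.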
